A study of Zea mays with 229 samples.

Results

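The bHLH92 targets are the maize genes that the authors listed as responding when the transcription factor bHLH92 was introduced into protoplasts, leaf cells whose walls had been digested away. They were taken as the distinct genes in the authors' deposited table of edges whose regulator was Zm00001d011187, the identifier that the sample titles pair with the plasmid bHLH92. There were 3674 of them among 19787 genes listed for any of 23 regulators, which is 18.6% of the listed genes. This percentage is the background for counts of bHLH92 targets given here, except where the text says otherwise.

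The libraries came from the maize inbred B73. Seedlings had 3 days in a light and dark cycle and then 7 days in darkness, and the middle part of their second leaves gave the protoplasts. In the batch labelled 20210517, 3 libraries with nitrogen and 3 without nitrogen received bHLH92 on the p1107 plasmid, and 4 with and 4 without nitrogen received the empty vector. Titles name the empty vector p1107NLSmyc in this batch and in some others, that of Orphan42 included. In further batches, that of MYBR3 included, titles name it p1107. Lists compared below thus differ in the named control, and an effect of this was not tested. NAC5, NAC61 and WRKY107 were introduced in the same batch. Cells were sorted for red fluorescence, so each library came from the cells that took up the plasmid, and the libraries read the 3' ends of messenger RNA. The factor was supplied from a plasmid and transiently, in leaf cells of plants kept in the dark. The labels do not say whether the replicates were separate preparations of cells.

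Basic helix-loop-helix proteins such as bHLH92 bind DNA as pairs. The helix-loop-helix part joins 2 proteins, and the basic part in front of it contacts a short palindromic element called the E-box. In plants the family is known for roles in light signalling, iron uptake, anthocyanin pigmentation and the patterning of the leaf surface. The number in the name bHLH92 belongs to the naming of maize factors, and no role of this member is taken from it here.

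An edge in the authors' deposited table carries no direction, size, p-value or nitrogen condition. A bHLH92 target may therefore have risen or fallen, in either nitrogen condition, and a value per library or an error cannot be given for it. No comparison between lists could be tested over libraries, and the counts and shares below are descriptions of the lists. The bHLH92 gene itself was in its list and stood in row 8 of the 3307 rows of the longer stretch of bHLH92 rows. Among the 22 regulators whose list held their own gene, 13 had it in the first 10 rows of a stretch, 9 of them in the first row. Transcripts made from the plasmid may be counted as the gene, which was not checked, so this edge says nothing of self-regulation. Without a direction it does not verify the label either.

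With 3674 genes the bHLH92 list was the 13th longest of 23. Of these targets, 13 could be named as factors from the sample titles, the bHLH92 gene included. The microRNA gene MIR171h matched the reference gene table, which belongs to another assembly, and the remaining 3660 are known here by identifier only.

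Which transcription factors were among the bHLH92 targets was described first. The list held 12 of the 22 other regulators, or 54.5%, against 18.6% of all listed genes. Across all 23 lists the number of other regulators listed ran from 1 to 16, with a median of 8, and 4 lists held more than that of bHLH92, those of HB6 (16), G2 (14), WRKY107 (14) and NAC61 (13). These 4 lists were longer than that of bHLH92. All 10 lists shorter than that of bHLH92 held fewer than 12. The share of 54.5% was not tested against other lists.

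Of the factors in the bHLH92 list, those of the NAC family, plant factors of development and stress responses, were NAC5 and NAC109. NAC5 stood in row 351 of the longer stretch and was a target of 15 regulators besides itself, bHLH92 included. NAC109 stood in row 532 and was a target of 10 regulators. NAC61 and NAC66 were not in the bHLH92 list.

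The MYB and MYB-related factors in the list, members of families that act in phenylpropanoid metabolism, development and stress, were MYB34, MYB81 and MYBR3. MYB81 was a target of 13 regulators besides itself, MYB34 of 9 and MYBR3 of 7. MYB21, MYB56 and MYB121 were not in the list.

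HB6, a homeobox factor by its name, stood in row 254 and was a target of 16 regulators besides itself. Orphan42, whose label gives no family, stood highest of the 12, in row 70, and was a target of 15. EREB115, named for the ethylene-responsive element binding family, stood in row 531 and was a target of 13. GLK44, of the Golden2-like family to which the chloroplast regulator G2 belongs, stood in row 974 and was a target of 14. G2 itself was not a bHLH92 target. The factors of this group had many regulators, and bHLH92 was 1 among them.

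WRKY107, MYBR3 and bHLH47 stood in the last rows of the longer stretch among the 12. WRKY107, of a family known for defence responses, stood in row 2704 and was a target of 3 regulators besides itself, bHLH92, G2 and Zm00001d003176. bHLH47, the other bHLH factor studied, stood in row 3207, which is 97.0% of the way through the longer stretch, and was a target of 7. bZIP9, a basic leucine zipper factor, was a target of 7 and was the 1 regulator found in the shorter stretch of bHLH92 rows, in row 141 of 367. WRKY36 and the regulators Zm00001d003176, Zm00001d032024 and Zm00001d033859, which no title names, were not in the list.

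In the opposite direction, the bHLH92 gene was a target of 1 other regulator, WRKY107. WRKY107 and bHLH92 therefore listed each other. They were introduced in the same batch and may share its 8 empty vector libraries. None of the other 11 regulators in the bHLH92 list had the bHLH92 gene among its targets.

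MIR171h was the 1 microRNA gene recognised among the bHLH92 targets. Only 5 listed genes, all microRNA genes, could be recognised by the reference gene table. That 1 of these 5 was a bHLH92 target is near the 18.6% of all listed genes. Targets known by identifier only were not checked for further microRNA genes. Members of the miR171 family act on messenger RNAs of GRAS transcription factors of the HAIRY MERISTEM type, which keep meristem cells undifferentiated. MIR171h stood in row 1624 of the longer stretch. Besides bHLH92 it was listed for 7 regulators, Orphan42, MYB121, GLK44 and G2 in other batches and NAC5, NAC61 and WRKY107 in the batch of bHLH92. All 4 factors of that batch thus listed it, and their comparisons may share empty vector libraries.

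How many bHLH92 targets were private, that is, listed for no other regulator, was also counted. There were 92, or 2.50% of the list. The share in the 23 lists ran from 0% for NAC109 to 11.5% for NAC61, with a median of 2.66%. In all lists together 5167 of 92485 distinct edges, or 5.59%, were private. The bHLH92 share was 13th of 23, the same place as its list length. The 2 lists nearest in length from other batches lay on either side of it, with 163 private genes of 4002 for Orphan42 (4.07%) and 75 of 4260 for MYBR3 (1.76%). Of the 10 shorter lists, those of bHLH47 (3.24%) and EREB115 (3.64%) had higher private shares. Of the 12 longer lists, those of MYBR3 and MYB34 (1.12%) had lower ones.

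**Figure D1:**
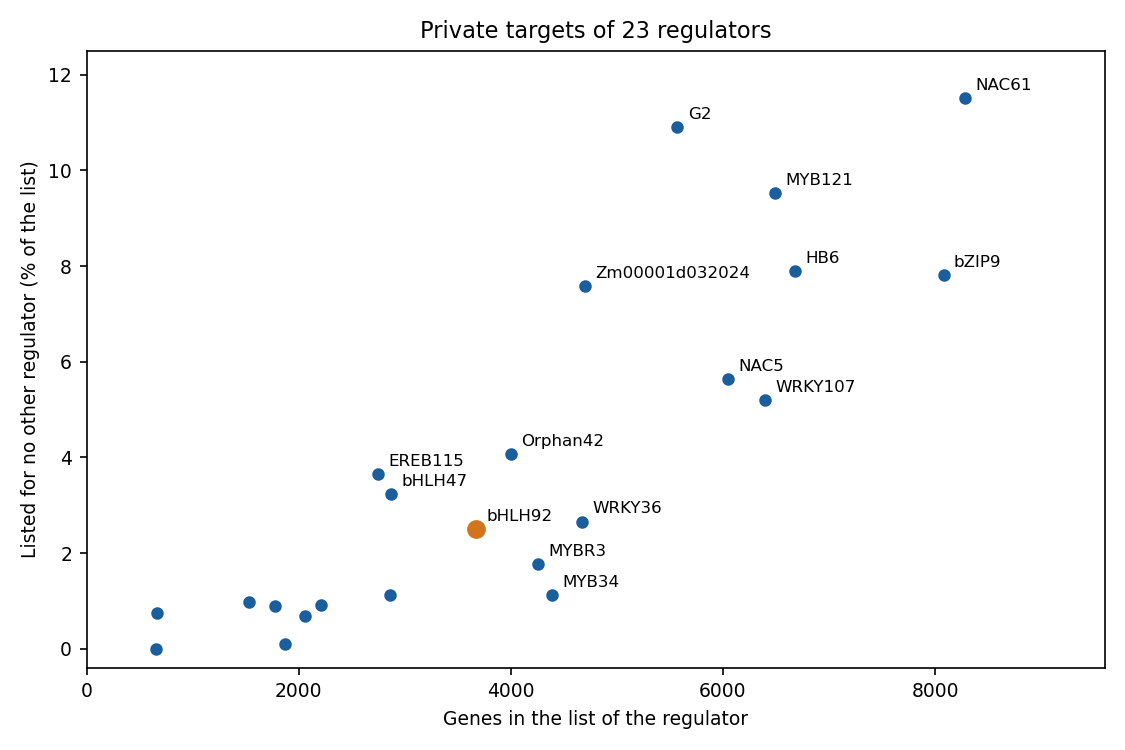
Each point is 1 of 23 regulators, with the number of genes in its list on the x axis and the share of these genes listed for no other regulator, in percent, on the y axis; bHLH92 is the larger orange point. Longer lists had higher private shares in general, and bHLH92, with 3674 genes and 2.50%, lay among lists of like length.

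The private count depended on the lists of the same batch. Without NAC5, NAC61 and WRKY107, 211 bHLH92 targets (5.74%) were listed for no remaining regulator. The additional 119 genes were listed for bHLH92 and for factors of batch 20210517 alone, 77 of them for 1 such factor, 33 for 2 and 9 for all 3. The same step, with batch partners left out, raised the private share of MYB81 from 1.12% to 2.90%, that of bHLH47 from 3.24% to 5.25%, that of Orphan42 from 4.07% to 5.35% and that of MYBR3 from 1.76% to 2.98%. With this step the bHLH92 share lay above those of both Orphan42 and MYBR3, and no longer between them. For bHLH92 the step removed 3 lists, of 6045, 8286 and 6401 genes. For Orphan42 and for MYBR3 it removed 2 lists each, all of them shorter. The step was thus unlike for these lists, and the effect of the number and length of the lists removed was not tested. The sources used here do not say how the authors combined empty vector libraries. Shared empty vectors and shared responses cannot be told apart for these 119 genes.

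In all, 171 targets of bHLH92 had exactly 1 other regulator. For 94 of them that regulator belonged to another batch, most often bZIP9 (25 genes), G2 (15), MYB121 (14) or HB6 (11), whose lists were among the longest. Genes restricted to bHLH92 and bHLH47 numbered 3. Those restricted to bHLH92 and WRKY36 numbered 4, and there were none restricted to bHLH92 and GLK44, MYB56, MYB81, NAC66 or NAC109.

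The number of other regulators that listed each bHLH92 target was counted next. A bHLH92 target had a median of 8 other regulators (quartiles 4 and 12), and a listed gene outside the bHLH92 list had a median of 2 (quartiles 1 and 5). The medians of the 23 lists ran from 5 to 12, with 10 lists below and 8 above that of bHLH92. Genes listed for at least 12 of the 23 regulators numbered 1832 in the whole table, or 9.26% of listed genes. Of these widely listed genes 1262, or 68.9%, were bHLH92 targets, and they made up 34.3% of its list. The minimum of 12 counts bHLH92 itself, which raises both the 68.9% and the 34.3%. The bHLH92 share of all listed genes is thus no background for the 68.9%, nor is 9.26% an even one for the 34.3%. At least 11 other regulators listed 34.3% of bHLH92 targets and 5.09% of listed genes outside the bHLH92 list. The lists of MYB34, MYBR3 and Orphan42 held 1418, 1401 and 1013 of the widely listed genes. These made up 32.3%, 32.9% and 25.3% of those lists. Without the lists of NAC5, NAC61 and WRKY107, 721 bHLH92 targets had at least 12 regulators and the median was 6 others. The genes Zm00001d021935 and Zm00001d036946, known by identifier only, were bHLH92 targets and were listed for all 23 regulators.

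**Figure D2:**
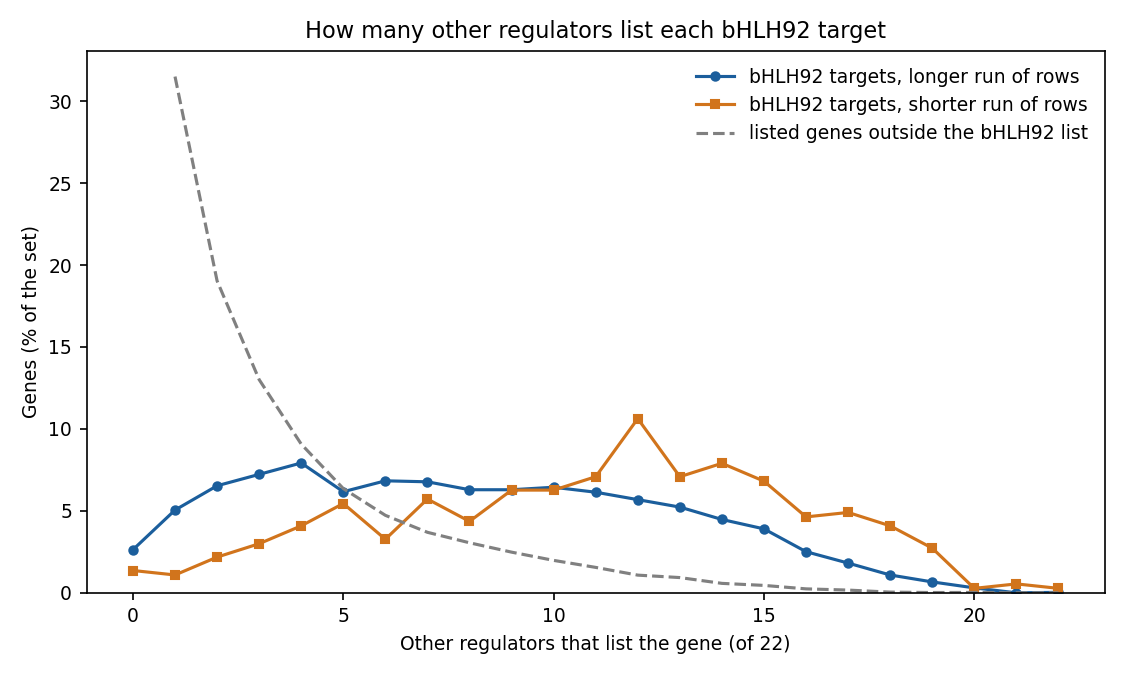
The x axis gives the number of the 22 other regulators that listed a gene, and the y axis the percentage of genes in each set; the lines are bHLH92 targets of the longer stretch of rows (3307 genes), of the shorter stretch (367 genes) and listed genes outside the bHLH92 list (16113 genes, dashed, which have at least 1 other regulator by definition). Targets of the shorter stretch lay furthest to the right, with a median of 11, those of the longer stretch had a median of 8, and the other listed genes had a median of 2.

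Whether the widely listed genes were taken up by bHLH92 more than by other factors with lists of like length was described with the regulators of other batches only. Of 5545 genes that 1 such regulator listed, 5.57% were bHLH92 targets. The share was 13.7% for genes of 2 to 4 regulators, 30.9% for 5 to 8, 53.2% for 9 to 12 and 71.8% for 13 or more (321 of 447 genes). For MYBR3 the shares in the same order were 4.43%, 11.9%, 33.0%, 56.3% and 72.1%. For Orphan42 they were 5.95%, 15.4%, 30.6%, 42.7% and 51.2%. The 3 lists were close up to 8 regulators, and beyond that Orphan42 listed a smaller part of the genes than bHLH92 and MYBR3. These differences between lists were not tested. The number of lists from other batches was 19 for bHLH92 and 20 for the other 2, and different lists were left out for each. The class of 13 or more held 447 genes for bHLH92, 873 for Orphan42 and 875 for MYBR3. The classes are therefore not alike, most of all the last, and the shares in it are not directly comparable.

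**Figure D3:**
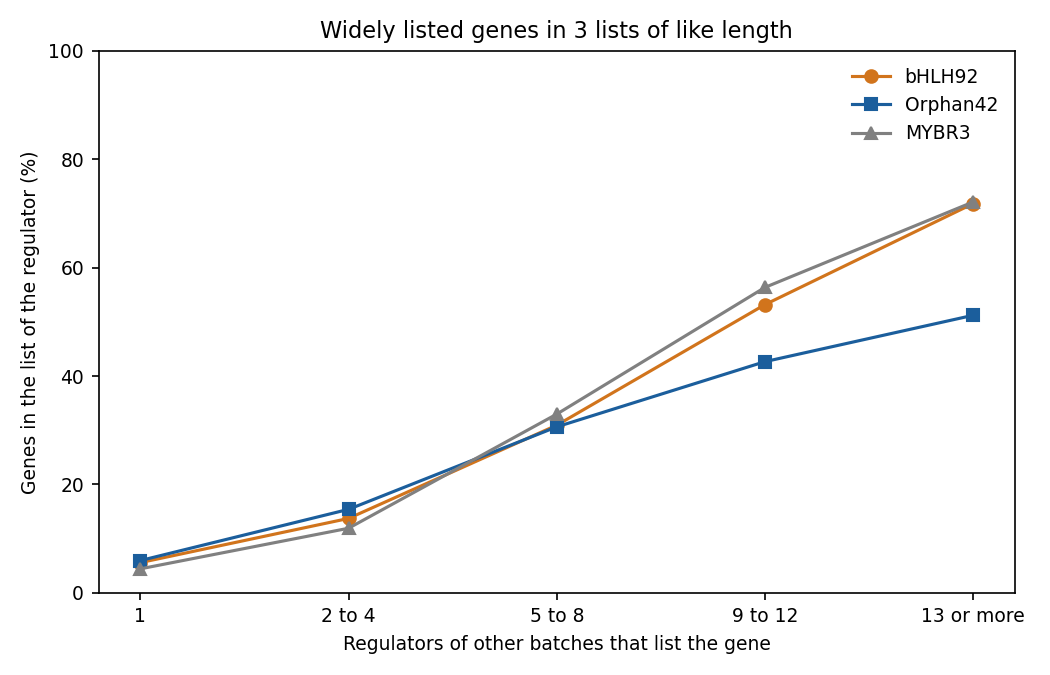
The x axis groups genes by how many regulators of other batches listed them, and the y axis gives the percentage of each group that was in the list of bHLH92, Orphan42 or MYBR3. All 3 lines rise with the number of regulators, and in the last group bHLH92 (71.8%) and MYBR3 (72.1%) lay together above Orphan42 (51.2%). The last group is not the same set for each line, with 447 genes for bHLH92, 875 for MYBR3 and 873 for Orphan42.

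The bHLH92 rows stood in 2 separate stretches of the authors' deposited table, of 3307 and 367 rows, which shared no gene. Neither the labels nor the table say what separates these stretches, and no meaning was inferred. The bHLH92 gene was in the longer one. Targets of the shorter stretch, 9.99% of the list, had a median of 11 other regulators (quartiles 7 and 14), and those of the longer had 8 (quartiles 4 and 12). In the shorter stretch 56.9% of targets had at least 11 other regulators, and in the longer 31.8%. Private targets made up 5 of the 367 (1.36%) and 87 of the 3307 (2.63%). The shorter stretch was also the more frequent in each of the 19 lists of other batches, with a median share of 43.1% against 30.9% for the longer.

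Within each stretch the number of other regulators fell from the first rows to the last. In the longer stretch the first of 10 equal blocks of rows had a median of 14 other regulators and no private target among 331 genes. The last block had a median of 4, and 26 of its 330 genes (7.88%) were private. The first private gene of the longer stretch stood in row 493, and 75 of its 87 private genes stood in the later of its 2 equal parts. In the shorter stretch the median fell from 15 in the first block to 6.5 in the last. The private genes with the lowest row numbers were Zm00001d047966 and Zm00001d036429, in rows 247 and 251 of the shorter stretch, which is 67.3% and 68.4% of the way through it.

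**Figure D4:**
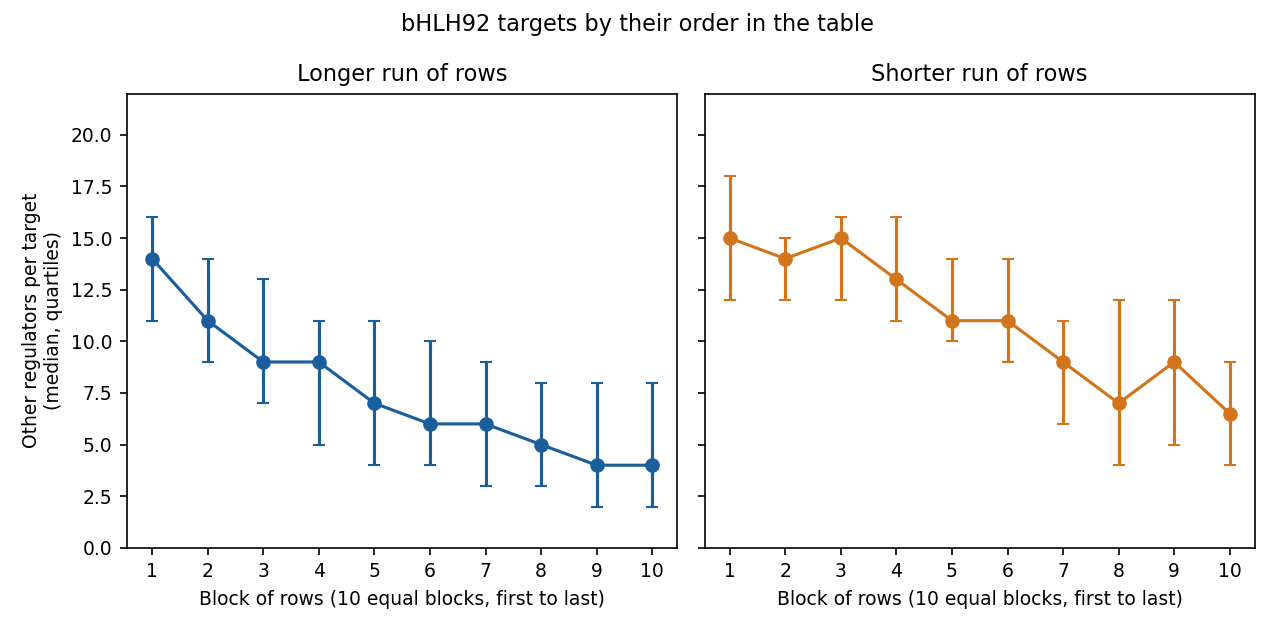
Points are the median number of other regulators per bHLH92 target in 10 successive blocks of rows, with bars from the lower to the upper quartile, for the longer stretch (330 or 331 genes per block) and the shorter stretch (36 or 37 genes per block). The median fell from 14 to 4 in the longer stretch and from 15 to 6.5 in the shorter.

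Across the genes of the longer stretch, Spearman's rho between row number and number of other regulators was -0.52, and in the shorter it was -0.52. Left without the lists of the same batch, the values were -0.49 and -0.51. These are descriptions across genes of 1 list, which are not independent. The same fall was seen in all 42 stretches of the table, with rho from -0.57 to -0.09 in the 40 stretches of the other regulators and a median of -0.33 there. In 6 of those 40 the value was below that of the longer bHLH92 stretch. Neither the labels nor the table say what the order of rows stands for.

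Finally, the bHLH92 list was set beside the 19 lists from other batches. NAC5, NAC61 and WRKY107 were left out of this comparison because they may share empty vector libraries with bHLH92. Their own lists held 6045, 8286 and 6401 genes, or 30.6%, 41.9% and 32.3% of listed genes. Each of the 19 other lists held a larger share of the bHLH92 targets than of all listed genes. The median share was 32.1% of bHLH92 targets against a median background of 14.5%, and the ratio of both shares ran from 1.54 to 3.02 with a median of 2.02. Among genes of at least 2 regulators the ratio ran from 1.27 to 2.31, with a median background of 19.3%. This minimum counts bHLH92 itself, so a target needed 1 other regulator and any other gene 2. The ratios are therefore lower in part by construction. Ratios between other pairs of lists were not computed here, so a ratio above 1 is not read as particular to bHLH92.

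The largest shares of the bHLH92 list were in the longest lists. That of bZIP9 held 2326 of the 3674 targets, or 63.3%, where its share of all listed genes was 40.8%, and these genes were 28.8% of the bZIP9 list. HB6 held 53.5% of bHLH92 targets against a background of 33.7%, and MYB121 held 51.4% against 32.8%. WRKY36 held 47.6% against 23.6%, a ratio of 2.02 and higher than the 1.54 to 1.65 of the 5 longer lists from other batches. G2 had the lowest ratio of all 19, with 43.4% of bHLH92 targets against 28.1% of listed genes. Zm00001d032024 held 39.2% against 23.7%. Among the lists nearest in length to that of bHLH92, Orphan42 held 36.5% against 20.2%, MYBR3 held 39.9% against 21.5% and MYB34 held 41.8% against 22.2%.

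The other bHLH factor, bHLH47, listed 1041 of the bHLH92 targets. They were 28.3% of the bHLH92 list and 36.2% of the bHLH47 list, against backgrounds of 14.5% for bHLH47 and 18.6% for bHLH92. The ratio of 1.95 was 11th of the 19 and below their median. MYB81 and EREB115, whose lists were of nearly the same length as that of bHLH47, held 32.1% of bHLH92 targets against 14.5% and 29.8% against 13.9%, with ratios of 2.22 and 2.15. The ratio with the factor of the same family was thus within the range of the ratios with factors of other families.

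The highest ratios belonged to short lists. Zm00001d033859 listed 372 bHLH92 targets, which were 56.1% of its 663 genes. It held 10.1% of bHLH92 targets against 3.35% of listed genes, a ratio of 3.02. GLK44 followed with 27.1% against 11.2% (ratio 2.43, 996 shared genes) and Zm00001d003176 with 22.7% against 9.45% (2.40, 835 genes). NAC66 held 18.3% against 7.73% (2.36), MYB56 held 24.1% against 10.4% (2.31) and MYB21 held 20.0% against 8.96% (2.23). The longer stretch of Zm00001d003176, of 1335 rows, also stands in the MYB56 list, so the ratios of these 2 lists are not separate observations. NAC109, the shortest list with 658 genes, had 271 shared genes and a ratio of 2.22. The 10 lists whose regulators were bHLH92 targets had a median ratio of 1.92 and a median length of 3438 genes. The 9 lists whose regulators were not had a median ratio of 2.23 and a median length of 2063 genes, so list length moved with this difference and its part was not tested.

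**Figure D5:**
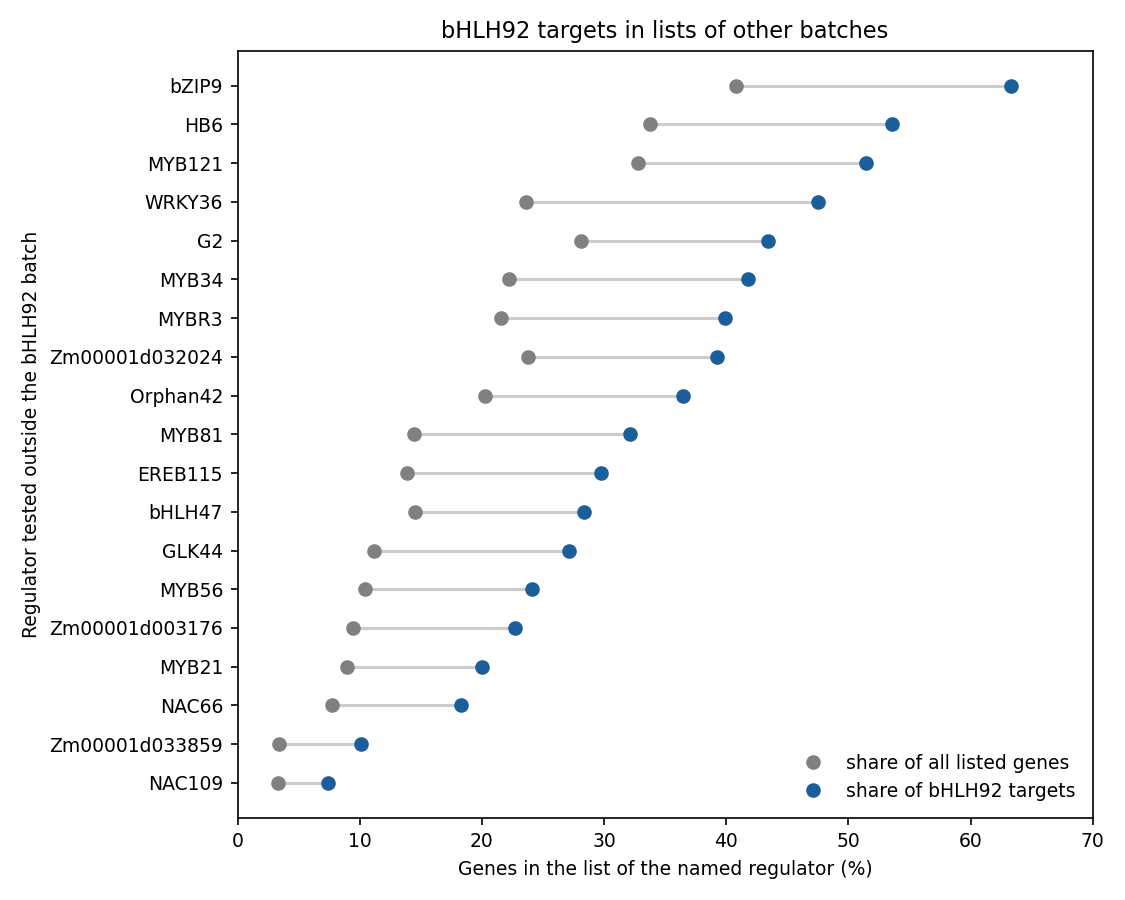
For each of 19 regulators tested outside the bHLH92 batch, the blue point gives the percentage of the 3674 bHLH92 targets that were in its list and the grey point the percentage of all 19787 listed genes. The blue point lay to the right of the grey one in all 19 lists, from NAC109 (7.38% against 3.33%) to bZIP9 (63.3% against 40.8%).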

How the data were processed

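Poly-A RNA of leaf protoplasts was read with a 3' messenger RNA library kit, per the labels' protocols. The authors deposited 1 table of 94256 rows (92485 distinct edges), with the identifiers of a regulator and of its target, alone and combined. The submitters' processing notes name featureCounts, edgeR and the build B73 RefGen_v4. Versions, thresholds and the handling of nitrogen conditions and batches were not given in the sources here. Depth per library is therefore unknown. The planned edgeR test needed counts and was not run.

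Titles matched 20 of 23 regulators to a plasmid. The plasmids of batch 20210517 are all among these, so the other 3 were tested elsewhere. Distinct targets were counted per list, the background being the 19787 listed genes; genes that no list holds are left out of it. Of the listed genes 5, all microRNA genes, matched the reference table (Zm-B73-REFERENCE-NAM-5.0), so lists by gene description and cell type markers could not be applied. Named genes were factors named by titles, matched genes, up to 2 targets with the most regulators, up to 2 private targets with the lowest row numbers, and the first of the longest stretches of consecutive identifiers. Alternatives changed which lists, minimums, rows or identifier gaps were used. Counting was tested on simulated lists. Members and lists were chosen with earlier results of these data known. Python 3.11.15, numpy 2.4.6, pandas 2.3.3, scipy 1.17.1 and matplotlib 3.10.9 were used.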

Additional observations from a re-analysis of the deposited data

How the results depend on the processing

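The number of bHLH92 targets was 3674 over all rows and 3673 over gene models. Private targets, 92 in number, were 211 without the lists of the same batch, 453 against the lists of the same batch alone and 263 when 1 other regulator was allowed. They were 100 without the 3 regulators that no title names. Targets of at least 12 regulators, 1262 in number, were 721 without the same batch, 2198 at a minimum of 8 and 176 at a minimum of 18, the last 2 by construction. The median of 8 other regulators was 6 without the same batch, which leaves fewer lists to count. The median share in lists of other batches was 32.1%, and 43.1% in the shorter stretch of rows; the cause was not tested. Targets with a neighbouring identifier rose from 751 to 1222 within 2 and 2135 within 5 numbers, by construction. Of 18 alternative values, 8 stayed within 1.5 times the count or within the 95% exact binomial interval of the share or median. That interval treats the genes of a list as independent, which they are not, and measures no spread between libraries. It served only as a rule for sorting the alternatives. Leaving out the longer stretch of Zm00001d003176, which also stands in the MYB56 list and was chosen after seeing the data, gave 1224 targets of at least 12 regulators and 92 private ones. No paired analysis was possible because edges carry no value for a single library. Leaving out replicates was not run for the same reason.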

Other observations

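Among the 3673 bHLH92 targets with a numbered gene model identifier, 751 (20.4%) had another target with the next or preceding number. For the lists nearest in length the share was 19.7% for Orphan42 and 21.9% for MYBR3. The bHLH92 list held 405 pairs of consecutive numbers, 321 with both genes in the longer stretch of rows, 13 with both in the shorter and 71 with 1 in each. The longest series of consecutive numbers had 4 genes, and there were 5 of them. The first ran from Zm00001d006210 to Zm00001d006213, all in the longer stretch, and its genes had 5, 19, 12 and 12 other regulators. Whether consecutive numbers are neighbours on a chromosome was not checked here.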
